A study of Mus musculus with 6 samples.

Results

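Voltage-gated and related ion channels were represented by 80 probes for 76 genes, out of 6856 probes in the deposited table and 6269 with 1 gene symbol. They were chosen by symbol alone, as potassium (Kcn), calcium (Cacn), sodium (Scn and a digit), hyperpolarization-activated (Hcn and a digit) and chloride (Clcn) channel genes, without use of any measured value. The potassium class held 47 probes (35 for pore-forming and 12 for auxiliary or silent subunits), the calcium class 20, the sodium class 3, the HCN class 3 and the chloride class 7. The samples were total RNA of the neocortex of 6 null mutant embryos of the mouse, taken at embryonic day 14, on a C57BL/6 background, described in the labels as synaptically silent. Each mutant was hybridised to an array of 2 colours against wild-type neocortex of the same age and background, pooled from 6 animals. The mutant was in cy3 on replicates 1, 2 and 3 and in cy5 on replicates 4, 5 and 6. The pool is 1 control sample that all arrays share, so a test of the ratio against 0 does not hold the variation among wild-type embryos.

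Each value is a log ratio of the 2 channels of an array, with base 2 assumed. The labels do not settle which channel was the numerator, so signs are given as deposited and are not read as higher or lower in the mutant. They also do not settle whether replicates 1 to 3 run the same way as replicates 4 to 6. The count of channel probes past the threshold and the class medians are therefore given in both readings, as deposited and with replicates 1 to 3 turned. Estimates of single genes are given as deposited, with the turned value for some of them. In bulk tissue a ratio cannot tell fewer cells of a type from less RNA per cell.

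Ion channels are membrane proteins that let selected ions cross when voltage, a ligand or tension opens them. Sodium and calcium channels carry inward currents that excite a neuron, potassium channels carry outward currents that quiet it, and HCN channels carry a slow pacemaker current. Most ClC proteins of the chloride class are exchangers of endosomes and lysosomes and not channels of the cell surface. Auxiliary subunits carry the pore proteins to the membrane and tune their gating. The neocortex of this age holds dividing progenitors and newly made neurons that are only starting to build these currents.

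Replicates 3 and 4 stood apart from the others over all probes. The standard deviation of the log ratios was 1.09 on replicate 3 and 0.62 on replicate 4, against 0.35 to 0.52 on the other 4 arrays. These 2 arrays correlated with each other at r = 0.59 across probes, while replicate 3 correlated with replicates 1, 2, 5 and 6 at -0.20, -0.19, -0.37 and -0.11. Within the channel probes the correlation of replicates 3 and 4 was 0.75 over the 26 with a value on both. Probes share their arrays, so these are descriptions across probes and not tests. Of 14 neocortex markers, 12 had a probe and all 12 had a value on every array. Neuron markers had such values on 4 of 7 probes, progenitors on 5 of 6, ganglionic eminence on 6 of 9 and erythroid cells on 3 of 3. Markers of meninges and vessels had them on 1 of 6 probes, microglia on 2 of 5, with Cx3cr1 without any value, and muscle on 2 of 5, with Myog without any. Of all probes with 1 gene symbol, 55.5% had a value on every array. A log ratio holds no level and the filter behind missing values is not stated, so these counts cannot check the makeup of the tissue. The array medians of the neocortex list ran from -0.82 to 0.24 and those of the meninges and vessel list from -0.41 to 0.40. Those of neurons ran from -1.03, on replicate 3, to 0.11, and those of microglia from -0.50 to 1.24, on replicate 4. Progenitors had -0.57 to 0.18, ganglionic eminence -0.52 to 0.38, erythroid cells -0.34 to 0.12 and muscle -0.14 to 0.23. Their part in the channel values was not tested.

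A minority of ion channel probes had a value on every array. Of the 80 probes, 26 (32.5%) had a value on all 6 arrays, against 3481 of 6269 (55.5%) among all probes with 1 gene symbol. Another 46 had a value on 1 to 5 arrays and 8 had none. By class, potassium channels had 12 of 47 probes (25.5%) complete, calcium channels 7 of 20 (35.0%), sodium channels 2 of 3, HCN channels 0 of 3 and chloride channels 5 of 7 (71.4%). The reason for a missing value is not stated in the labels. The share with 3 values or fewer was 51.1% of potassium, 20.0% of calcium and 28.6% of chloride probes, and 26.3% of all probes with 1 gene symbol.

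**Figure D1:**
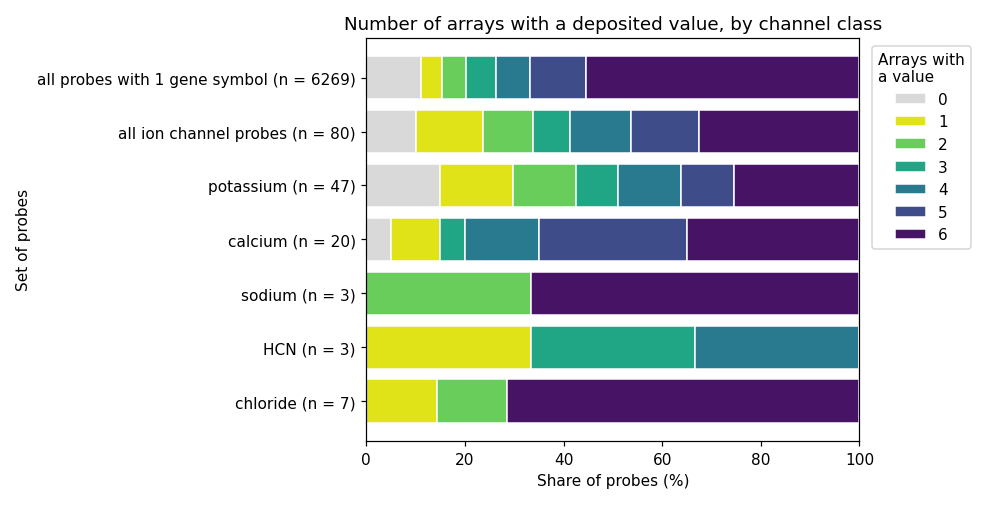
Bars give the share of probes (percent, horizontal axis) by the number of the 6 arrays on which they had a deposited value, for all probes with 1 gene symbol and for each channel class. Of potassium probes 25.5% had a value on all 6 arrays, of chloride probes 71.4% and of all probes with 1 gene symbol 55.5%.

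Within the classes, the inward rectifiers (Kcnj), which hold the resting potential, had 1 complete probe of 13, Kcnj15, and 4 of the 8 channel probes without any value: Kcnj4, Kcnj5, Kcnj12 and 1 of the 2 Kcnj6 probes. The other 4 were Kcnab1, Kcnip2, Kcns1 and Cacna1f, the last a calcium channel pore of the retina. The Shaker family (Kcna), voltage-gated channels of axons, had 3 of 5 probes complete. The A-type Kcnd family of dendrites had 0 of 3 complete and 3 of 3 with 3 values or fewer. Among calcium channels the pore-forming Cacna1 genes had 4 of 9 complete, and the Cacnb, Cacna2d and Cacng subunits had 1 of 4, 1 of 3 and 1 of 4. Complete chloride probes were those of Clcn2, Clcn3, Clcn4, Clcn6 and Clcn7, while Clcn1, the channel of skeletal muscle, had 2 values and Clcn5 had 1. By array, channel probes had between 32 values on replicate 4 (40.0%) and 56 on each of replicates 5 and 6 (70.0%). All probes with 1 gene symbol had 64.9% and 83.2% on these arrays.

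**Figure D2:**
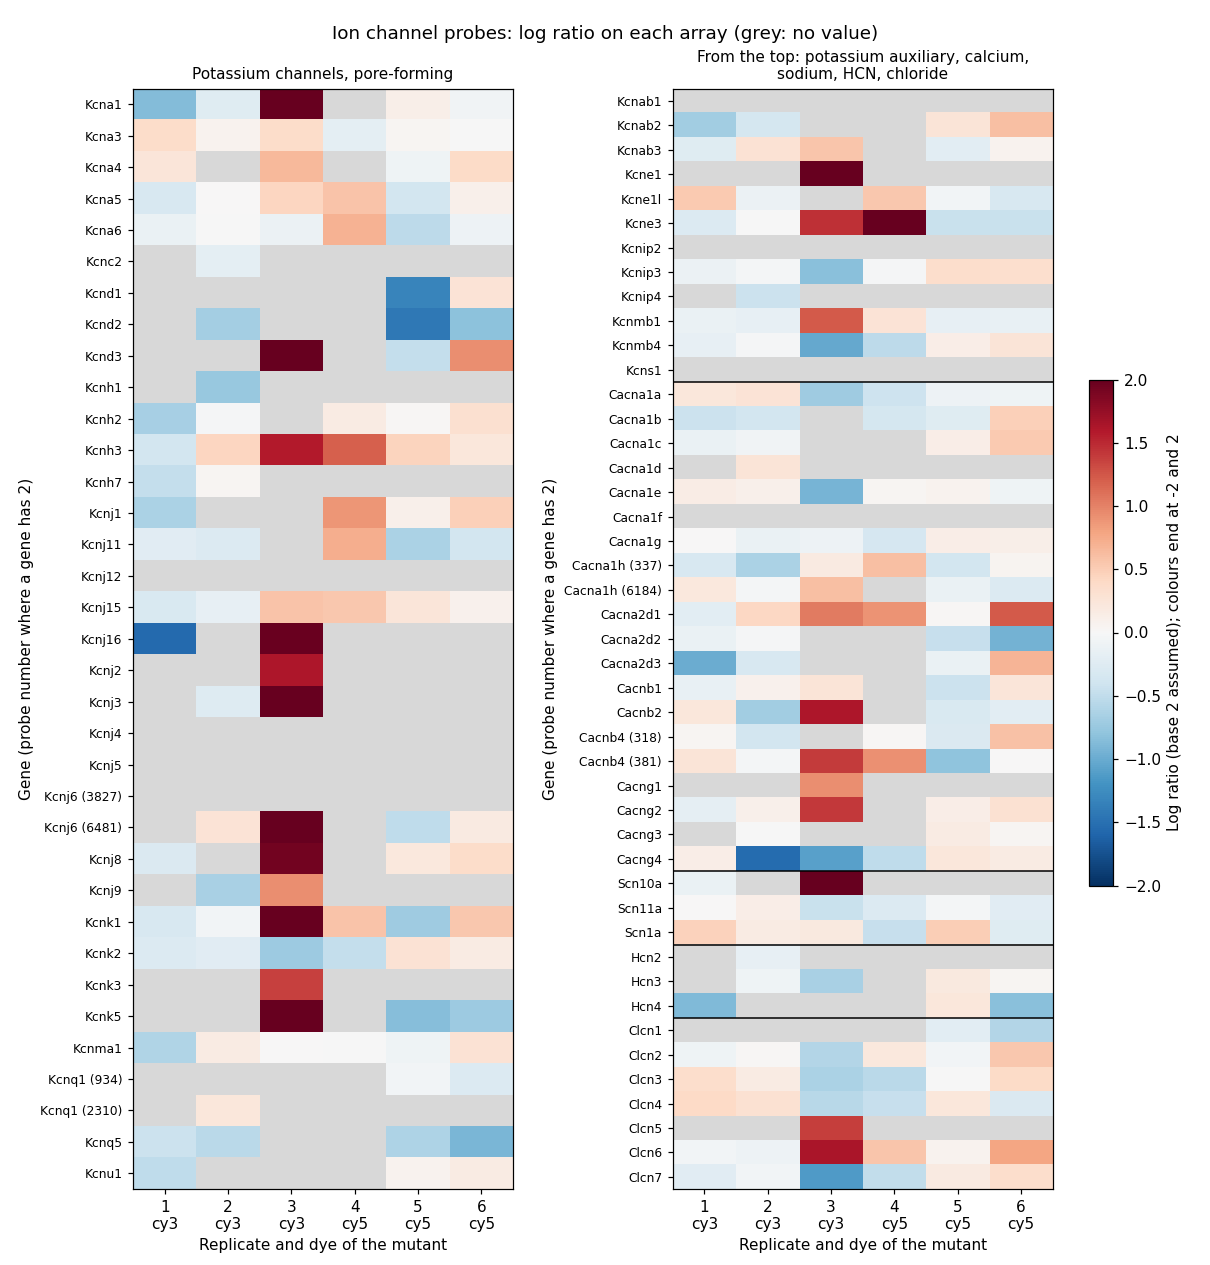
Each row is an ion channel probe and each column an array, with the log ratio (base 2 assumed) in colour, ending at -2 and 2, and grey where the table has no value. Values beyond 2 lie on replicate 3, and for Kcne3 on replicate 4, while the 4 values of Kcnq5 are negative on every array that has one.

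The classes were centred differently on replicates 3 and 4. On replicate 3 the median log ratio was 1.37 over 25 potassium probes, 0.44 over 12 calcium probes and -0.57 over 6 chloride probes, where all probes had -0.23. On replicate 4 these medians were 0.54, 0.03 and -0.46, against -0.13 for all probes. On the other 4 arrays the medians of these 3 classes lay between -0.31 and 0.37. On replicate 3, 24 of 47 channel values (51.1%) were beyond 1 in size, where 28.8% of all probes were, and 33 of 47 were positive, where 41.8% of all probes were.

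**Figure D3:**
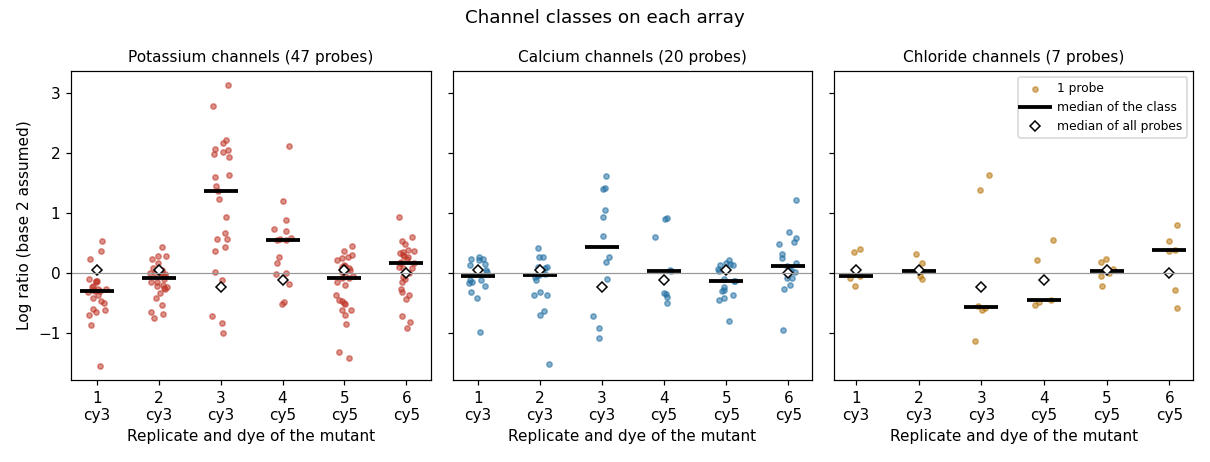
Points are the log ratios (base 2 assumed) of single probes of the potassium, calcium and chloride classes on each array, bars the class medians and diamonds the medians of all probes. On replicate 3 the potassium median was 1.37 and the chloride median -0.57, around a median of -0.23 for all probes.

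On replicate 3 the log ratio also went with the number of arrays on which a probe had a value, in the whole table as in the channels. Over all probes with 1 gene symbol its median was 1.82 for those with a value on 1 to 3 arrays, 0.67 for 4 or 5 arrays and -0.41 for 6 arrays. For channel probes the medians were 1.98 over 11 probes, 1.03 over 10 and -0.05 over 26. The potassium class, with the lower share of complete probes, held 13 of the 21 incomplete channel probes that had a value on this array. All 13 were positive, from 0.56 to 3.14. Of all incomplete probes with 1 gene symbol and a value on this array, 499 of 622 (80.2%) were positive. Over complete probes alone, the medians on replicate 3 were 0.40 for 12 potassium, -0.10 for 7 calcium and -0.58 for 5 chloride probes. The gap between the potassium and chloride medians was thus smaller among complete probes, and each kept its sign, while the calcium median went from above to below 0. These shares and medians are descriptions and were not tested. On replicates 1 and 2 the relation ran the other way for both sets, with medians of -0.50 and -0.20 for channel probes on 1 to 3 arrays against -0.12 and -0.01 for those on 6.

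**Figure D4:**
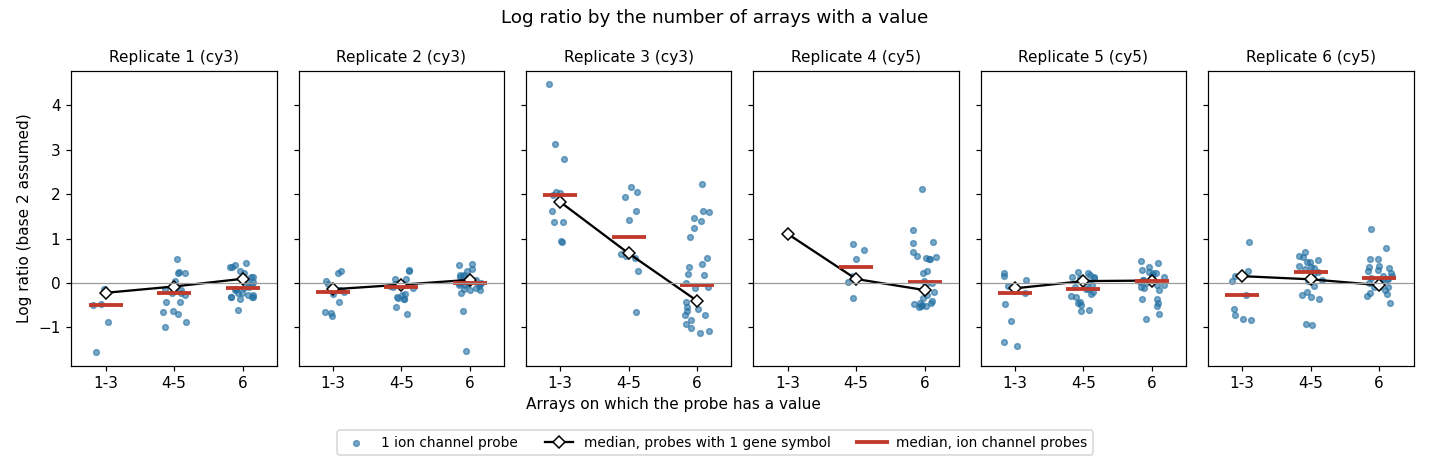
Each panel is an array, with the log ratio (base 2 assumed) of channel probes (points) grouped by the number of arrays on which they had a value, channel medians as red bars and medians of all probes with 1 gene symbol as diamonds. On replicate 3 the medians of all named probes fell from 1.82 to 0.67 and -0.41, and those of channel probes from 1.98 to 1.03 and -0.05.

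The comparison of mutants with the pool addresses gene expression regulated by synaptic activity, as the title of the study has it. No ion channel gene passed its test. Of the 80 probes, 46 had at least 2 values in each dye orientation and were fitted with limma together with all others, and 34 were not. Of these 46, 0 had a Benjamini-Hochberg adjusted p under 0.05, as had 0 of all 4958 probes fitted (0.0%), and each channel probe had an adjusted p of 0.921 or more. At an unadjusted p under 0.05, limma gave 2 channel probes, Kcnq5 and Cacna2d1, where 1.77% of all probes lay under it. Estimates were above 0 for 22 channel probes and below 0 for 24, with a median of -0.02, where 43.3% of all probes were above 0, 56.7% were below and the median was -0.03. The size of the estimate was within its standard error for 27 of the 46, a count not made over all probes.

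With replicates 1 to 3 turned, the same values gave 0 channel probes past the threshold. At an unadjusted p under 0.05 there was then 1 channel probe, Kcnab2, where 4.6% of all probes lay under it. This reading tests the difference between the dye orientations of the deposited signs, so a gene that stands out in it may differ by dye or by genotype, which cannot be told apart. The sign of the estimate differed between the readings for 32 of 46 channel probes. This was not counted over all probes, so it is not read as a trait of channels. One sign on every array with a value was found for 2 of 46, Kcnq5 and Cacna2d2, where 2.72% of all fitted probes had it. One sign on all cy3 arrays and the opposite on all cy5 arrays was found for 4, where 6.9% of all fitted probes had it. These were Hcn3, Cacna1c, Kcnab2 and Kcnh2. Kcnh2 had 5 values and the other genes with either pattern 4, while 3763 of the 4958 fitted probes had 6. Either pattern is easier to meet with fewer values, so these shares are not over like probes. Without replicates 3 and 4, 42 channel probes could be fitted and 0 passed, where 0.0212% of all probes did. With array weights 0 of 46 passed, where 0.0403% of all probes did, and 5 lay under an unadjusted p of 0.05, where 12.1% of all probes did. Without replicates 3 and 4, limma gave 5 of 42 at an unadjusted p under 0.05 as deposited, where 13.6% of all probes lay under it. All 5 were negative, where 262 of those 642 probes were negative and 380 positive. With replicates 1 and 2 also turned there were 7, where 23.4% of all probes lay under it. Of these 7, 5 were positive and 2 negative, where 503 of 1107 probes were positive and 604 negative.

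**Figure D5:**
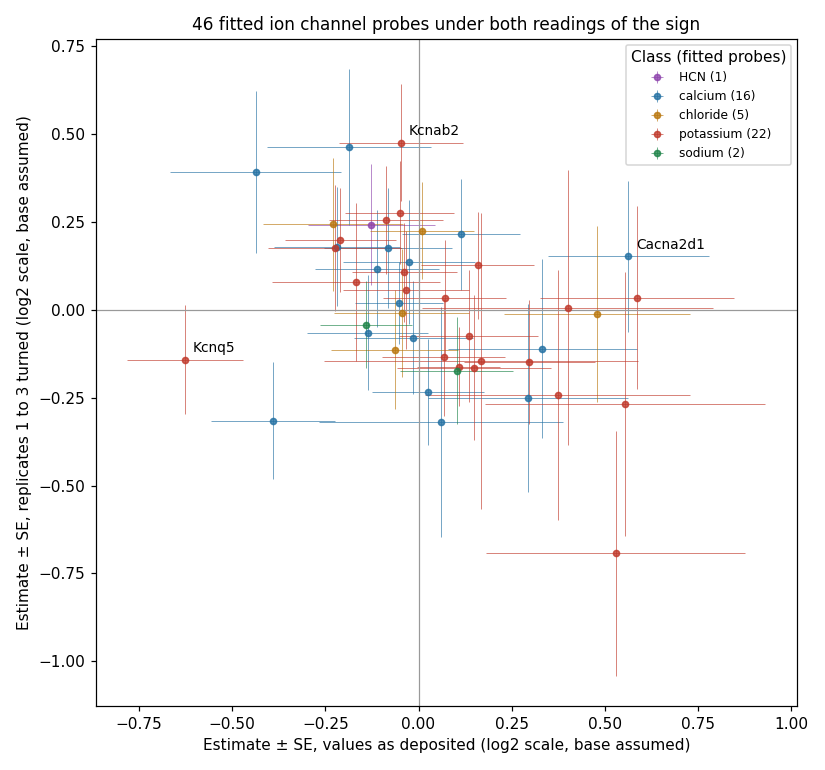
Each point is 1 of 46 fitted channel probes, with its limma estimate and standard error for the values as deposited (horizontal) and with replicates 1 to 3 turned (vertical), both on the log2 scale with the base assumed. Named points had an unadjusted p under 0.05 in a reading: Kcnq5 and Cacna2d1 as deposited and Kcnab2 with replicates 1 to 3 turned.

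Among pore-forming potassium channels, 15 probes were fitted, 9 with estimates above 0 and 6 below, and the median estimate was 0.11. Of the 12 that could also be fitted without replicates 3 and 4, 6 were above 0 with all arrays and 2 without those, where the median was -0.11. The share of all probes above 0 went the other way, from 43.3% to 62.6%. With replicates 1 and 2 also turned, 8 of the 12 were above 0, where 47.8% of all probes were. The median of the 12 was then 0.10. Kcnq5, a subunit of the slow M current that limits repetitive firing, had log ratios of -0.43 and -0.54 on replicates 1 and 2, then -0.62 and -0.92 on replicates 5 and 6. All 4 values were negative and replicates 3 and 4 had none. Its estimate was -0.63 ± 0.15 (SE, n = 4; limma adjusted p = 0.921), and it was -0.14 with replicates 1 to 3 turned. In the fit without replicates 3 and 4, which tested 4728 probes, the same 4 values gave an SE of 0.08 and an adjusted p of 0.222.

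Kcnh3, a channel of the ether-a-go-go family found in forebrain, had -0.37, 0.44 and 1.59 on the cy3 arrays and 1.19, 0.44 and 0.23 on the cy5 arrays. It was positive on 5 of 6 arrays, and the largest values were those of replicates 3 and 4. The estimate of 0.59 ± 0.26 (SE, n = 6; limma adjusted p = 0.921) became 0.18 without those arrays and 0.03 with replicates 1 to 3 turned.

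The leak channels of the tandem-pore family, which set the resting potential, went in different directions on replicate 3. Kcnk1 had -0.32, -0.06 and 2.22 on the cy3 arrays and 0.56, -0.71 and 0.54 on the cy5 arrays, and its estimate of 0.37 ± 0.36 (SE, n = 6) became -0.14 without replicates 3 and 4. Kcnk2, which responds to membrane stretch and lipids, had -0.28, -0.22 and -0.72 on the cy3 arrays and -0.48, 0.29 and 0.16 on the cy5 arrays. Its estimate was -0.21 ± 0.15 (SE, n = 6), or -0.01 without those arrays, and neither gene passed. Kcnk5 had 2.79 on replicate 3 and -0.85 and -0.73 on replicates 5 and 6, and Kcnk3 had 1.37 on replicate 3 alone.

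The 7 inward rectifier probes with a value on replicate 3 were all positive there, where 41.8% of all probes were. All but Kcnj15 were incomplete, and 80.2% of incomplete probes with 1 gene symbol were positive there. Kcnj6, a channel opened by G protein beta-gamma subunits, had 0.27 and 2.17 on replicates 2 and 3, then -0.50 and 0.18 on replicates 5 and 6, with an estimate of 0.53 ± 0.35 (SE, n = 4), or -0.69 with replicates 1 to 3 turned. Its partner Kcnj3 had -0.25 on replicate 2 and 2.02 on replicate 3. Kcnj8, the pore of ATP-sensitive channels of vessels, had -0.28 and 1.93 on replicates 1 and 3, then 0.22 and 0.36 on replicates 5 and 6. Its estimate of 0.56 ± 0.38 (SE, n = 4) did not pass. Kcnj6 and Kcnj8 had 4 values each, so neither could be fitted with any of those arrays left out.

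The Shaker gene Kcna1, of axonal delayed rectifiers, had -0.87, -0.25 and 2.06 on the cy3 arrays and 0.12 and -0.07 on replicates 5 and 6. The estimate of 0.17 ± 0.42 (SE, n = 5) became -0.27 without replicate 3. Kcna4, an inactivating member of the family, had 0.24 and 0.65 on replicates 1 and 3, then -0.08 and 0.38 on replicates 5 and 6, with 0.30 ± 0.18 (SE, n = 4). The remaining fitted pore subunits, Kcna3, Kcna5, Kcna6, Kcnh2, Kcnj11, Kcnj15 and Kcnma1, had estimates from -0.17 to 0.16.

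The A-type Kcnd genes could not be fitted, since each had at most 1 value in cy3. Kcnd2, which opposes signals that travel back into dendrites, had -0.68 on replicate 2 and -1.42 and -0.82 on replicates 5 and 6. Kcnd3 had 2.04 on replicate 3, -0.47 on replicate 5 and 0.93 on replicate 6. Kcnd1 had -1.33 and 0.27 on replicates 5 and 6. When at least 1 value in each orientation and 3 in all were asked for, 53 channel probes could be fitted and 0 passed. At an unadjusted p under 0.05 there were then 5 of them, where 2.42% of all probes lay under it. These were Kcnq5, Cacna2d1, Kcnd2 at -0.90 ± 0.24, Kcnd3 at 1.13 ± 0.36 and Kcnk5 at 1.00 ± 0.20 (SE, n = 3 for each of the last 3). In each of these 3 fits the cy3 side is 1 value, which adds nothing to the estimated spread.

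Kcnq1, the cardiac and epithelial relative of Kcnq5, had 2 probes that share no array. One had 0.23 on replicate 2 and the other -0.06 and -0.28 on replicates 5 and 6. Of the other unfitted pore genes, Kcnc2, Kcnh1 and Kcnj2 had 1 value each, Kcnh7, Kcnj9 and Kcnj16 had 2, and Kcnu1 had 3. Kcnj1 had 4 values, 1 of them in cy3.

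Auxiliary potassium subunits gave 7 fitted probes of 12, with 4 estimates above 0 and 3 below. Kcne3, a small membrane partner of KCNQ pores, had -0.27, -0.01 and 1.46 on the cy3 arrays and 2.11, -0.45 and -0.44 on the cy5 arrays. The estimate of 0.40 ± 0.39 (SE, n = 6) became -0.29 ± 0.08 (SE, n = 4; limma adjusted p = 0.300) without replicates 3 and 4, so its sign was set by those arrays. Kcnmb1 and Kcnmb4 are beta subunits of the large-conductance calcium-activated channel, the first of smooth muscle and the second of neurons. Kcnmb1 had -0.13, -0.16 and 1.23 on the cy3 arrays and 0.27, -0.16 and -0.15 on the cy5 arrays, with an estimate of 0.15 ± 0.21 (SE, n = 6), and -0.15 without replicates 3 and 4. Kcnmb4 had -0.16, -0.03 and -1.02 on the cy3 arrays and -0.53, 0.13 and 0.26 on the cy5 arrays, with -0.22 ± 0.18 (SE, n = 6), and 0.05 without them. The 2 subunits thus had opposite signs on replicates 3 and 4 and also differed in sign in both estimates. Their pore gene Kcnma1 had 0.0046 and -0.0013 on these arrays.

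Kcne1l, an X-linked member of the Kcne family, had 0.53 and -0.11 on replicates 1 and 2, then 0.54, -0.05 and -0.31 on replicates 4 to 6, with an estimate of 0.13 ± 0.19 (SE, n = 5). Kcnab3 and Kcnip3 had estimates of 0.07 and -0.05, and Kcnip4 had 1 value. Kcne1, the partner of Kcnq1 in heart, had 1 value, 3.14 on replicate 3. Kcnab2, a cytosolic beta subunit of Shaker channels named here because of its values, had -0.70 and -0.34 on replicates 1 and 2, then 0.26 and 0.60 on replicates 5 and 6. As deposited its estimate was -0.05 ± 0.17 (SE, n = 4; limma adjusted p = 0.956), and with replicates 1 to 3 turned it was 0.48 (adjusted p = 0.972).

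Calcium channels gave 16 fitted probes of 20, with 6 estimates above 0 and 10 below and a median of -0.04. When replicates 3 and 4 were left out, 6 of the 16 changed sign, 3 to above 0 and 3 to below, and the median was -0.06. Sign changes were not counted over all probes. The Cacna2d subunits carry calcium channels to the membrane, and some of them are targets of gabapentin. Cacna2d1 had -0.22, 0.41 and 1.04 on the cy3 arrays and 0.89, 0.03 and 1.22 on the cy5 arrays. It was positive on 5 of 6 arrays, and high on replicate 6 as well as on replicates 3 and 4. The estimate was 0.56 ± 0.22 (SE, n = 6; limma adjusted p = 0.921), 0.36 without replicates 3 and 4 and 0.15 with replicates 1 to 3 turned.

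Cacna2d2 had -0.13 and -0.02 on replicates 1 and 2, then -0.46 and -0.95 on replicates 5 and 6. All 4 values were negative, those on the cy5 arrays more so, and the estimate was -0.39 ± 0.17 (SE, n = 4; limma adjusted p = 0.921), or -0.32 with replicates 1 to 3 turned. Cacna2d3 had -0.99 and -0.32 on replicates 1 and 2, then -0.13 and 0.69 on replicates 5 and 6. The 3 subunit genes thus had different patterns, and no pair of them was tested against each other.

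Pore subunits of the calcium class had small estimates. Cacna1a, the P/Q-type pore of presynaptic terminals, had 0.23, 0.27 and -0.72 on the cy3 arrays and -0.41, -0.10 and -0.09 on the cy5 arrays, with -0.14 ± 0.16 (SE, n = 6), and 0.08 without replicates 3 and 4. Cacna1b, the N-type pore of presynaptic terminals, had -0.42 and -0.37 on replicates 1 and 2, then -0.35, -0.24 and 0.47 on replicates 4 to 6. The estimate of -0.22 ± 0.17 (SE, n = 5) did not pass, and its value on replicate 6 was the only positive one. Cacna1h, a low-threshold T-type pore, had 2 probes with estimates of -0.08 ± 0.17 (SE, n = 6) and 0.03 ± 0.15 (SE, n = 5). On replicate 1 they lay at -0.32 and 0.21, on replicate 3 at 0.18 and 0.61. Cacna1c, Cacna1e and Cacna1g had estimates of 0.11, -0.11 and -0.05, and Cacna1d had 1 value.

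The cytosolic beta subunit Cacnb4 had 2 probes that did not follow each other. The first had 0.26, -0.03 and 1.41 on the cy3 arrays and 0.91, -0.80 and 0.02 on the cy5 arrays, with 0.29 ± 0.27 (SE, n = 6). The second had 0.04 and -0.37 on replicates 1 and 2, then 0.03, -0.28 and 0.58 on replicates 4 to 6, with -0.03 ± 0.18 (SE, n = 5). On replicate 4 the probes thus stood at 0.91 and 0.03. The related Cacnb1 and Cacnb2 had estimates of -0.01 and 0.06.

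Cacng2 and Cacng4 are named as calcium channel subunits but belong to the proteins that carry AMPA-type glutamate receptors to synapses. Cacng4 had 0.13, -1.53 and -1.08 on the cy3 arrays and -0.51, 0.22 and 0.16 on the cy5 arrays. Its estimate was -0.44 ± 0.23 (SE, n = 6; limma adjusted p = 0.921), and 0.39 with replicates 1 to 3 turned. Cacng2 had -0.18, 0.09 and 1.41 on the cy3 arrays and 0.13 and 0.31 on replicates 5 and 6, with 0.33 ± 0.25 (SE, n = 5), or 0.09 without replicates 3 and 4. On replicate 3 these genes lay on opposite sides of 0. Cacng3 had values of -0.01, 0.16 and 0.04 on replicates 2, 5 and 6, and Cacng1, the subunit of skeletal muscle, had 0.93 on replicate 3 alone.

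Of the sodium channels, Scn1a, a main pore of brain neurons, had 0.46, 0.17 and 0.20 on the cy3 arrays and -0.46, 0.49 and -0.25 on the cy5 arrays. The estimate was 0.10 ± 0.15 (SE, n = 6; limma adjusted p = 0.921), within its standard error. Scn11a, a pore of peripheral sensory neurons, had 0.01, 0.13 and -0.44 on the cy3 arrays and -0.28, -0.04 and -0.23 on the cy5 arrays, with -0.14 ± 0.12 (SE, n = 6). Scn10a, also of sensory neurons, had -0.14 on replicate 1 and 4.48 on replicate 3, the highest value of any channel probe on any array. Only 1 array thus held that value, and no fit was possible.

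HCN channels had few values. Hcn3 had -0.09 and -0.64 on replicates 2 and 3, then 0.19 and 0.04 on replicates 5 and 6. The estimate was -0.13 ± 0.17 (SE, n = 4; limma adjusted p = 0.921) as deposited and 0.24 with replicates 1 to 3 turned. Hcn4 had -0.89, 0.23 and -0.84 on replicates 1, 5 and 6, and Hcn2 had -0.16 on replicate 2.

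The chloride class was the most complete, and its members on endosomes and lysosomes split on replicates 3 and 4. Clcn6, an exchanger of late endosomes, had -0.06, -0.11 and 1.63 on the cy3 arrays and 0.55, 0.06 and 0.79 on the cy5 arrays, with 0.48 ± 0.25 (SE, n = 6; limma adjusted p = 0.921), or 0.17 without replicates 3 and 4 and -0.01 with replicates 1 to 3 turned. Clcn7, the lysosomal exchanger that osteoclasts and neurons need, had -0.22, -0.06 and -1.14 on the cy3 arrays and -0.49, 0.18 and 0.36 on the cy5 arrays. Its estimate was -0.23 ± 0.19 (SE, n = 6), or 0.06 without those arrays. The endosomal exchangers Clcn3 and Clcn4 had -0.63 and -0.55 on replicate 3 and -0.54 and -0.46 on replicate 4, and positive values on replicates 1 and 2. Their estimates of -0.05 ± 0.18 and -0.06 ± 0.17 (SE, n = 6 for each) became 0.22 and 0.16 without those arrays. Clcn2, a channel of the cell surface, stood at 0.01. Without replicates 3 and 4 all 5 chloride estimates were above 0, from 0.06 to 0.22, where 62.6% of all probes were, and 0 passed. With replicates 1 and 2 also turned, 3 were above 0 and 2 below, from -0.19 to 0.26, where 47.8% of all probes were above 0.

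The median estimates of the classes were close to 0 and are given with no test. They were 0.09 over 22 potassium, -0.04 over 16 calcium, -0.02 over 2 sodium and -0.05 over 5 chloride probes, against -0.03 over all probes. Without replicates 3 and 4 they were -0.06, -0.06, 0.09 and 0.16, against 0.04, so that the potassium, sodium and chloride medians and that of all probes changed sides of 0. The potassium median was then over 19 probes, without Kcna4, Kcnj6 and Kcnj8, which had 0.30, 0.53 and 0.56 with all arrays. Of these 19 probes, 10 were above 0 with all arrays and 5 without replicates 3 and 4. All probes were then 4728 and not 4958. With replicates 1 to 3 turned the class medians were 0.02, 0.07, -0.11 and -0.01. With replicates 3 and 4 left out and replicates 1 and 2 turned they were 0.05, 0.11, -0.10 and 0.14, against -0.01 over all probes. Of the 19 potassium probes, 11 were then above 0. The median size of the estimate was 0.14 over channel probes and 0.13 over all probes, and the median standard error was 0.17 and 0.16.

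Other genes of ion transport and excitability, from a list of 71 pumps, exchangers, other channels and channel partners, were measured for comparison. Of the 43 genes with a probe, 40 had a value, and 20 of their 49 probes were complete. Of 33 probes fitted, 9 had estimates above 0 and 24 below, where 43.3% and 56.7% of all probes did. None passed in limma (0 of 33), as 0 of all 4958 probes did. At an unadjusted p under 0.05 limma gave 1, the calmodulin gene Calm3 at -0.51 ± 0.16 (SE, n = 5; adjusted p = 0.921). Of all probes 1.77% lay under it. The median of the list was -0.13 and its array median was -0.62 on replicate 3, where all probes had -0.23 and potassium channels 1.37.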

How the data were processed

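The authors deposited a table of log ratios for 6856 probes on 6 arrays of 2 colours. How the authors made these values, read here as log2 ratios with the base assumed, is not stated in the labels: neither scanner, background correction, normalization nor the filter behind missing values. The mutated gene is not reported here. Probes were named from the platform annotation; all 80 channel probes matched RefSeq by gene identifier with 0 changed symbols. Probes that had 2 or more values per dye orientation were fitted with limma 3.58.1 (lmFit, eBayes) in R 4.3.3, with the dye orientation as a term. Tests were two-sided, Benjamini-Hochberg adjusted over 4958 probes, with a threshold of 0.05. The fit was also run on simulated ratios, drawn independently for each array. Scanner intensities were not used here, so signal strength and batches are unknown. The mutants are called biological replicates in the design text; p-values measure the spread between them. Named were the fitted members with the smallest p per class (7 pore-forming and 4 auxiliary potassium, 7 calcium, up to 5 sodium and HCN, 4 chloride), members with a value beyond 2 in size, and genes with 2 probes; other genes named were chosen after their values were seen. The members and lists were chosen with earlier results of these data known. Alternatives were other centring, scaling, filters, moderation, weights, signs and arrays.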

Additional observations from a re-analysis of the deposited data

Results flagged for a closer look

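Among 29 fitted named probes and the 4 class medians, 2 results held 1 array whose gap to the nearest other, as a share of the range, passed Dixon's limit. Chance alone passes it in about 5% of sets tested, and 33 sets were tested. Kcnmb1 lay at 1.23 on replicate 3, a gap of 0.69 of its range, with its other 5 values from -0.16 to 0.27. Cacna1b lay at 0.47 on replicate 6, a gap of 0.80 of its range, with its other 4 values from -0.42 to -0.24.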

How the results depend on the processing

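In each of 18 alternatives, 0 channel probes passed in limma, 1 of them with the threshold at 0.1; since each had an adjusted p of 0.921 or more as reported, this count says nothing about stability. All probes gave 0 in the reported fit, 2 with array weights and 1 without replicates 3 and 4. The 2 channel probes at an unadjusted p under 0.05 became 1 with replicates 1 to 3 turned, 5 with the relaxed filter, 5 with array weights, 5 without replicates 3 and 4, 7 without them and with replicates 1 and 2 turned, and 0 to 3 without 1 replicate. The dye orientation term had 0 channel probes past the threshold in every setting that held it. Over all probes it had 31 of 4958 with array weights, and 0 in most other settings. Without replicates 3 and 4 and with replicates 1 and 2 turned it had 1 of 4728. Class medians moved by less than the standard deviation of their array medians in every setting. That spread was 0.61 for potassium, 0.20 for calcium, 0.25 for sodium and 0.35 for chloride channels. It was wide against the medians, so this says nothing about stability. Without replicates 3 and 4 the potassium median, over fewer probes, and the sodium and chloride medians changed sides of 0. Of 29 named probes fitted, 5 kept the sign of their estimate in every setting that gave one: Kcnq5, Cacna2d2, Cacna2d1, Kcnh3 and Scn11a. These are not alike, since Kcnq5 and Cacna2d2 were fitted in 12 alternatives and Cacna2d1, Kcnh3 and Scn11a in 17. Kcnq5 and Cacna2d2 had no value on replicates 3 and 4, so leaving those arrays out could not change their sign. Neither could be fitted without replicate 1, 2, 5 or 6. The cause of the sign changes of the other probes was not tested. With replicates 1 to 3 turned, sign changed for Kcna4 at -0.15, Kcnj6 (probe 6481) at -0.69, Kcnk2 at 0.20, Kcnj8 at -0.27, Kcnk1 at -0.24, Kcnmb4 at 0.18, Kcnmb1 at -0.16, Kcne1l at -0.075, Cacng4 at 0.39, Cacng2 at -0.11, Cacna1b at 0.18, Cacnb4 (probe 381) at -0.25, Hcn3 at 0.24, Scn1a at -0.17, Clcn6 at -0.010, Clcn7 at 0.24, Kcna1 at -0.15, Cacna1h (probe 337) at 0.18, Cacna1h (probe 6184) at -0.23 and Cacnb4 (probe 318) at 0.14. It changed with replicates 3 and 4 left out for Kcnk1 at -0.14, Kcnmb4 at 0.050, Kcne3 at -0.29, Kcnmb1 at -0.15, Cacnb4 (probe 381) at -0.14, Cacna1a at 0.076, Clcn7 at 0.063, Clcn4 at 0.16, Clcn3 at 0.22, Kcna1 at -0.27 and Cacna1h (probe 6184) at -0.061. With these left out and replicates 1 and 2 turned, an alternative chosen after seeing the data, it changed for Kcnk2 at 0.24, Kcnmb4 at 0.14, Kcne3 at -0.15, Kcnmb1 at -0.0062, Kcne1l at -0.20, Cacng4 at 0.45, Cacna1b at 0.26, Cacnb4 (probe 381) at -0.25, Scn1a at -0.095, Clcn7 at 0.20, Cacna1h (probe 337) at 0.16, Cacna1h (probe 6184) at -0.15 and Cacnb4 (probe 318) at 0.16. Array weights, which were 0.10 and 0.31 on replicates 3 and 4 and 1.40 to 4.01 on the others, changed it for Kcnk1 at -0.0041, Kcnmb4 at 0.032, Kcne3 at -0.17, Kcnmb1 at -0.13, Kcne1l at -0.014, Cacnb4 (probe 381) at -0.050, Cacna1a at 0.060, Clcn7 at 0.048, Clcn4 at 0.098, Clcn3 at 0.20, Kcna1 at -0.22, Cacna1h (probe 6184) at -0.081 and Cacnb4 (probe 318) at 0.017. Centring and scaling changed it for Kcnmb1 at -0.010, Clcn4 at 0.067, Clcn3 at 0.079, Kcna1 at -0.10 and Cacna1h (probe 6184) at -0.063. Averaging the probes of a gene changed the sign that 1 of its probes had for Cacna1h at 0.040 and Cacnb4 at 0.26. Leaving out the dye term changed it for Cacnb4 (probe 318) at 0.0014. Without 1 replicate, the estimates that changed sign ranged for Kcnk1 from -0.029 to 0.61, Kcne3 from -0.026 to 0.61, Kcnmb1 from -0.081 to 0.27, Cacna1a from -0.22 to 0.025, Scn1a from -0.038 to 0.20, Clcn4 from -0.16 to 0.086, Clcn3 from -0.16 to 0.10, Kcna1 from -0.27 to 0.46, Cacna1h (probe 337) from -0.21 to 0.033, Cacna1h (probe 6184) from -0.061 to 0.10 and Cacnb4 (probe 318) from -0.14 to 0.073. Some estimates could not be fitted without 1 replicate, where fewer than 2 values were left in an orientation. No paired analysis was possible because there is 1 group of mutants and 1 shared pool. Removing dim probes could not be run, since no intensities were used here. The number of arrays and the missing values limit the precision.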
